A study of Rattus norvegicus with 3 samples.

Results

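Mitochondrial ribosomal proteins form the protein part of the ribosome inside mitochondria (the mitoribosome), and their genes carry symbols starting with Mrpl for the large subunit or Mrps for the small subunit. Members were the genes with such a symbol in the RefSeq rat table (assembly GRCr8) whose accession was printed for a probe on the array. The table held 118 such symbols, 40 of them pseudogenes and 78 protein-coding genes. Of the protein-coding genes 63 were tested (41 Mrpl and 22 Mrps), among 14179 genes tested in all. No probe was matched for Mrpl28, Mrpl33, Mrpl39, Mrpl43, Mrps6, Mrps10, Mrps28, Mrpl41l1, Mrpl42l1, Mrps21l and Mrps36l1. The probes of Mrpl3, Mrps2, Mrps5 and Mrps18b were too dim to be tested. Mrpl9, Mrpl11 and Mrpl24 were not analysed here, and the gene once called Mrps36 is listed under the symbol Kgd4 and was not a member. A probe was kept when Feature Extraction, the program that read the array image, marked it well above background in the same colour on all 3 arrays, and 72 of the 78 matched probes passed. Of the 63 members 62 were well above background in both colours on all 3 arrays, and Mrpl47 was so in green on all 3 and in red on 2.

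The data came from kidney RNA of male Sprague-Dawley rats that were 5 weeks old when obtained and were acclimated for 1 week. The G200 group drank water with 200 ppm GABA, the inhibitory transmitter gamma-aminobutyric acid, for 3 weeks, and the negative control drank water with 0 ppm. The arrays addressed which kidney genes differ in expression after GABA. The labels name the tissue as the non-tumor region of the kidney and put 3 rats in each group. The paper gives a larger group size, and neither states whether RNA was pooled. Each of the 3 Agilent arrays compared control RNA in Cy3 (green) with G200 RNA in Cy5 (red). No array had the dyes exchanged, so a difference between the dyes and an effect of GABA cannot be told apart from the design. Over 1109 probes with replicate spots, the squared difference between arrays in green was 0.721 to 1.11 times that between replicate spots of an array. In red it was 10.8 to 16.4 times, over 1084 probes. For this reason the 3 green channels stood as a single control, and the tests below leave out the spread between control rats. Each array held 42877 spots other than controls, and 25657 to 26864 green and 24260 to 27008 red signals stood well above background. The members' median net intensity per array was 523 to 600.5 (green) and 874.25 to 1513.75 (red). Over all spots other than controls it was 35 to 37 (green) and 29.5 to 54.5 (red).

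The mitoribosome translates the few messenger RNAs encoded by mitochondrial DNA, all of which specify subunits of the respiratory chain and of ATP synthase. Its proteins are encoded in the nucleus, made in the cytosol and imported, and they assemble with ribosomal RNA made inside the organelle. Some of them have counterparts in bacterial ribosomes and others are found in mitochondria alone. The kidney, and its proximal tubule above all, is rich in mitochondria because reabsorption of salt consumes much ATP.

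After loess normalization between the dyes, the mitochondrial ribosomal protein genes lay on both sides of 0, while nearly all of them lay above 0 with median centring or with no normalization. Values are log2 ratios of G200 over control with loess unless another scaling is named, so a value above 0 means a higher level in G200. The mean over the 3 arrays was above 0 in 37 of the 63 members (58.7%), a share that was 95.2% when each array was centred on its median and 98.4% with no normalization between the dyes. By limma's test of the mean ratio against 0 with Benjamini-Hochberg adjustment, 13 members were higher and 13 lower in G200 (20.6% each). Over all genes tested, 11.6% were called higher and 25.9% lower (37.5% called in all, against 26 of 63 members, 41.3%). Over both directions, the members' share of calls lay near that of all genes here, but it did not with some other settings. It was 20.6% against 35.1% with a normexp offset of 0 and 23.8% against 35.6% with plain background subtraction, both with loess. It was 71.4% against 44.0% with median centring, 90.5% against 58.6% with no normalization and 25.4% against 37.5% with the ratio that Feature Extraction wrote into the deposited files. Without limma's pooling of variance over genes, a test of the 3 ratios against 0 called no member after adjustment (8 higher and 9 lower before it) and 2 of all genes. The calls also depended on single arrays. Without replicate 3 only Mrpl10 was called, 1.59% of the members against 11.4% of all genes. Without replicate 1, 7 members were called higher and 5 lower (19.0%, against 24.8% of all genes). Without replicate 2 the counts were 11 and 11 (34.9% against 35.0%). At an unadjusted p under 0.05, limma gave 15 members higher and 17 lower (50.8%, against 49.1% of all genes). In bulk kidney RNA, fewer cells of a type and less RNA per cell cannot be told apart.

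On replicates 1, 2 and 3, 34, 33 and 33 members lay above 0 (54.0%, 52.4% and 52.4%). Their median log2 ratio was 0.029, 0.011 and 0.0059 on these arrays and 0.039 for the mean, against −0.064, −0.040 and −0.052 and a mean of −0.049 over all genes tested, of which 42.8% lay above 0. All members have a RefSeq symbol, and over the 8908 genes tested that have one the median was −0.028, with 45.6% above 0 and 34.2% called. The SD over members was 0.39, 0.24 and 0.33 on replicates 1, 2 and 3, and the interquartile range was 0.47, 0.28 and 0.38. Replicate 2 was the narrowest, as it was over all genes tested, whose interquartile range was 0.48, 0.32 and 0.42. Of the 26 called members, 21 had their smallest absolute ratio on replicate 2 and 19 had their largest on replicate 1. Signs were the same on all arrays in 42 members, 22 of them positive and 20 negative, and they were mixed in 21. Mean ratios ran from −1.39 to 0.64. By limma's unadjusted p under 0.05 and a ratio of at least 2-fold, 4.06% of all genes passed (575) and 1 member did, Mrpl10. With median centring 1039 genes and 5 members passed, and with no normalization 3207 and 30. The deposited Feature Extraction ratio gave 1932 genes, a normexp offset of 0 gave 1313 and plain background subtraction 1287, each with 1 member.

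**Figure D1:**
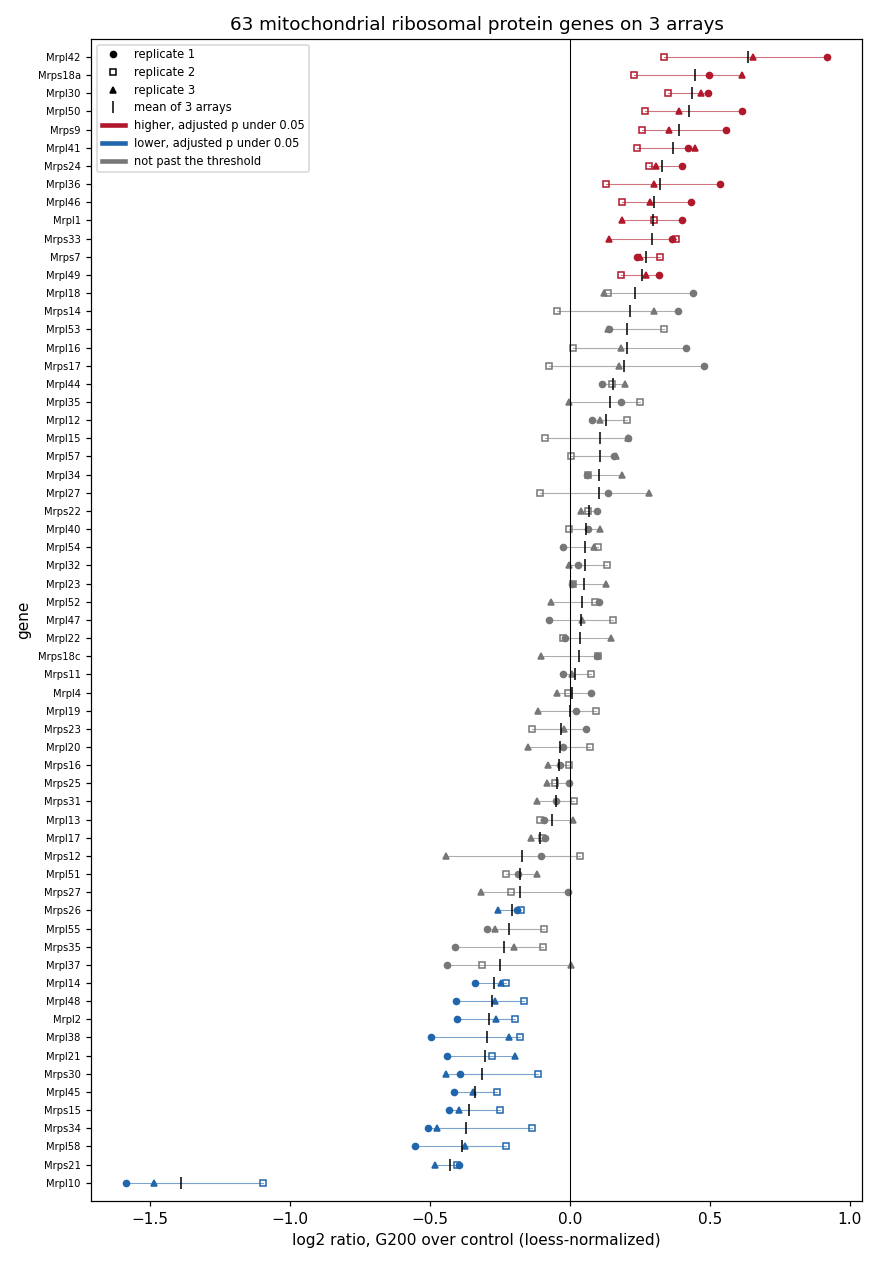
Log2 ratio (G200 over control, loess-normalized) of the 63 members on each of the 3 arrays, sorted by the mean, with a line from the lowest to the highest array and a bar at the mean. The 13 members called higher (red) lie at the top and the 13 called lower (blue) toward the bottom, with Mrpl10 alone below −1, but 12 of these 13 had ratios above 0 under median centring.

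The normalization between the dyes set the zero point of these ratios. The median of all genes was −0.049 with loess, 0.27 with median centring and 0.62 with no normalization. Set against the median of all genes, the members' median was 0.088 higher with loess and 0.33 higher with both other scalings. The number of members above the all-gene median was 41 (65.1%) with loess and 55 (87.3%) with both others. Median centring subtracts a single value per array from the ratios without normalization. Values relative to the all-gene median are therefore the same with both by arithmetic. Of the called members, 50.0% were higher with loess, 97.8% with median centring (44 higher and 1 lower) and 100% with no normalization (57 higher). Among all called genes the share higher was 30.8% with loess, 80.0% with median centring and 96.3% with none. The deposited Feature Extraction ratio, which was normalized between the dyes with LOWESS, gave 60.3% of members above 0 with 12 called higher and 4 lower (75% of calls higher). Which of these zero points is closer to the amounts of RNA was not tested. The 13 members called higher lay above 0 and above the all-gene median with each of the 3 scalings. Of the 13 called lower, 12 had ratios above 0 with median centring and with no normalization, 4 still lay below the all-gene median there, and 3 (median centring) and 10 (no normalization) were called higher. The rank correlation of the members' means between loess and median centring was 0.75, given as a description across genes of the same arrays.

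**Figure D2:**
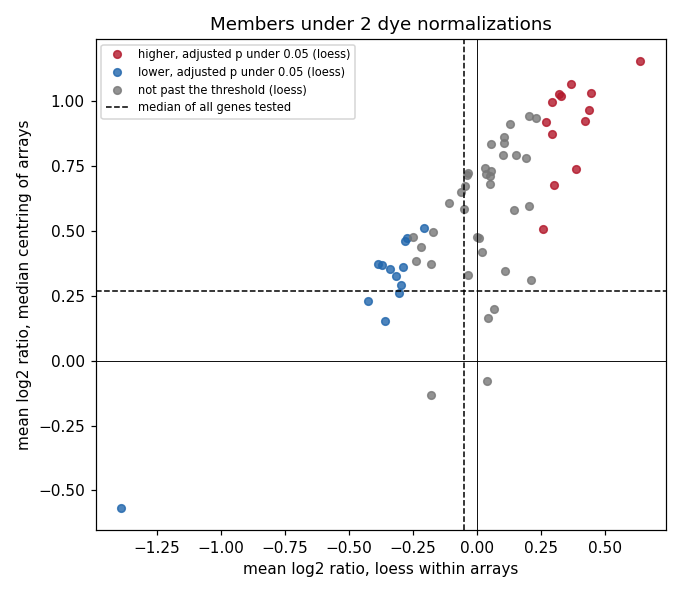
Mean log2 ratio (G200 over control) of each member with loess within arrays (horizontal) and with median centring (vertical), with dashed lines at the median of all genes tested. Members called lower with loess (blue) lie below 0 on the horizontal axis but, except for Mrpl10, above 0 on the vertical axis, while those called higher (red) lie above 0 and above the all-gene median on both.

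Among the members called higher, proteins found in mitochondria alone and those shared with bacteria were both present. Mrpl42, a protein of the large subunit without a bacterial counterpart, had log2 ratios of 0.92, 0.34 and 0.66 on replicates 1, 2 and 3. Its mean of 0.64 ± 0.29 (SD, n = 3) was the highest of the family, equal to 1.55-fold (limma, adjusted p = 0.00910). Mrps18a, which carries a small-subunit symbol but lies in the large subunit, had ratios of 0.50, 0.23 and 0.62 and rose by a mean of 0.45 ± 0.20 (limma, adjusted p = 0.0130). Mrpl30 had 0.49, 0.35 and 0.47, a narrow range around its mean of 0.44 ± 0.08 (limma, adjusted p = 0.00565). Mrpl50 had 0.61, 0.27 and 0.39 with a mean of 0.42 ± 0.17 (limma, adjusted p = 0.0126). Mrps9, a protein of the small-subunit head whose bacterial counterpart reaches toward the transfer RNA in the P site, had 0.56, 0.26 and 0.35 with a mean of 0.39 ± 0.15 (limma, adjusted p = 0.0137). In each of these 5 genes replicate 2 was the lowest array and all 3 arrays lay above 0. Mrpl41 was read by 2 probes, and they gave 0.42, 0.24 and 0.45 on the brighter and 0.39, 0.27 and 0.44 on the other, with a mean of 0.37 on both. Smaller rises were those of Mrps24 (mean 0.33), Mrpl36 (0.32), Mrpl46 (0.30) and Mrpl1 (0.29), the last of which forms the mobile stalk beside the exit site for transfer RNA. Mrps33 (0.29), Mrps7 (0.27) and Mrpl49 (0.26) were also called and are named after their values were seen.

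Promoters are shown where called members held the letters of an ETS factor site, since GABPA, an ETS factor, is a known activator of nuclear genes for mitochondrial proteins and its gene was among those measured. The RefSeq promoter table (GRCr8) matched 51 of the 63 members, and the 250 bases before each start were searched on both strands. CCGGAAG (ETS) was present in 12 of the 51 promoters (23.5%), against 7.27% of all 33469 promoters in the table and 9.01% of those of protein-coding genes. Among the called members with a promoter, it was present in 2 of 12 called higher, Mrpl36 and Mrps18a, and in 2 of 10 called lower, Mrpl58 and Mrpl48. These 4 promoters and that of Mrpl46, which faces a neighbouring member, were picked for printing with their values and matches known, and Mrpl48 is named after its values were seen. They are written 5′ to 3′ on the strand of the gene and end at the base before its start. Capitals mark the letters of any motif searched, on either strand. Mrpl36 (chr1:31795122-31795371, minus strand) holds CCGGAAG starting 75 bases before the start, CACGTG and AAGATGGC (as its reverse complement) at 29 and 16, and CCAAT at 207 and 167. Mrps18a (chr9:22367381-22367630, minus strand) holds CCGGAAG at 38 and CCAAT at 73. Mrpl58 (chr10:101145092-101145341, plus strand) holds it at 20, closest to the start of the 4, and CCAAT on the opposite strand at 171. Mrpl48 (chr1:164351377-164351626, minus strand) holds it at 76 on the opposite strand, and AAGATGGC at 177. Mrpl46 (chr1:142117031-142117280, minus strand) holds none, and its only match is TATAAA on the opposite strand at 157.
Mrpl36: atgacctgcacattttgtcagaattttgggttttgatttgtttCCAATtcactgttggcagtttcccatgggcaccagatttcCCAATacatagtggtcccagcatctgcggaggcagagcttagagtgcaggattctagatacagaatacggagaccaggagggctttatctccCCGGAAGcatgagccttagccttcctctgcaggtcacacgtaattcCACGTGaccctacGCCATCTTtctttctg
Mrps18a: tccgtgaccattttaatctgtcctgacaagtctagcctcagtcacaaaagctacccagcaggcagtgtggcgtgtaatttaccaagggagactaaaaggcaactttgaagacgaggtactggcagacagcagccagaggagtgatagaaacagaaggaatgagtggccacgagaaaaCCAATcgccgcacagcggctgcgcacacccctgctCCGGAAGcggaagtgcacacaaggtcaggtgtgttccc
Mrpl58: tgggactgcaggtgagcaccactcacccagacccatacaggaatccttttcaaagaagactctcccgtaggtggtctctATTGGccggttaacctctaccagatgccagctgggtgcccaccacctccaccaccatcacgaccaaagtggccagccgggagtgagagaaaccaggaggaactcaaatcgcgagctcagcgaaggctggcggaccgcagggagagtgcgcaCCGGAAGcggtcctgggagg
Mrpl48: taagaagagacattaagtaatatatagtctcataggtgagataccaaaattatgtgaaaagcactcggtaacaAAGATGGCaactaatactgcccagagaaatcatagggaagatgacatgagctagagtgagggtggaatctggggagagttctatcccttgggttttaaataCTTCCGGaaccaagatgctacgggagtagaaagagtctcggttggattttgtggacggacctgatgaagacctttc
Mrpl46: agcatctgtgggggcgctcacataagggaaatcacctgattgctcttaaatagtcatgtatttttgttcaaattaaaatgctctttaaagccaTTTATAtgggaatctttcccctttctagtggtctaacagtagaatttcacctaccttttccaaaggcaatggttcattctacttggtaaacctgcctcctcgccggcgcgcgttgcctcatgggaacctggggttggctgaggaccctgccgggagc

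The other motifs searched were GCATGCGC (NRF1 core), in 4 of the 51 promoters (7.84%, against 2.20% of all promoters), and AAGATGGC (YY1), in 3 (5.88% against 1.63%). CCAAT (NF-Y box) was present in 23 (45.1% against 34.0%). CACGTG, the E-box, which reads alike on both strands, was present in 3 (5.88% against 5.59%). The letters TATAAA were present in 6 (11.8% against 12.9%). GCATGCGC was present in none of the 12 promoters called higher and none of the 10 called lower. Such a match describes the letters only. The members' promoters had a median of 55.2% G and C and 14 CpG, against 51.2% and 5 over all promoters and 54% and 8 over those of protein-coding genes. Another gene started within 1000 bases on the opposite strand in 18 of the 51 (35.3%), against 13.7% of all promoters. Mrpl46 and Mrps11, the latter named after its values were seen, are such a pair within the family, starting 234 bases apart on chromosome 1. Their ratios were 0.43, 0.19 and 0.29 for Mrpl46, which was called higher, and −0.025, 0.076 and 0.0059 for Mrps11, which was not called. The difference between these neighbours was not tested.

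Mrpl10 stood apart from the other members that were called lower. It encodes the protein that anchors the Mrpl12 stalk, where translation factors dock, to the large subunit. Its brighter probe had log2 ratios of −1.58, −1.10 and −1.49. Their mean was −1.39 ± 0.26 (SD, n = 3), with a limma adjusted p = 0.000962. Its other kept probe had −0.063, −0.17 and −0.21 with a mean of −0.15, so the size of the fall was seen by 1 of 2 probes. Averaged over both probes Mrpl10 was at −0.77 and no member reached 2-fold. With median centring the brighter probe was at −0.57 and still called, and with no normalization at −0.22 and not called. Mrpl12 itself, the stalk protein, had 0.077, 0.20 and 0.11 with a mean of 0.13 and was not called, while it was called higher with median centring (0.91) and with no normalization (1.26). Without Mrpl10 the other 62 members had a median of 0.040, with 13 called higher (21.0%) and 12 lower (19.4%). Over all genes tested these shares were 11.6% and 25.9%. The median of the 62 was as dependent on the scaling as that of all 63.

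The remaining falls were smaller, and each of the genes named in this paragraph had a mean ratio above 0 with median centring and with no normalization. Mrps21 had −0.40, −0.40 and −0.48 with a mean of −0.43 ± 0.05 (limma, adjusted p = 0.00525). Its other probe had a mean of −0.12. Mrpl58, a peptidyl-tRNA hydrolase built into the large subunit that can release peptides from stalled ribosomes, had −0.55, −0.23 and −0.37 with a mean of −0.39 ± 0.16 (limma, adjusted p = 0.0154). Mrps34 had −0.51, −0.14 and −0.48 with a mean of −0.37 ± 0.21 (limma, adjusted p = 0.0242). Both of these were closest to 0 on replicate 2. Mrps15, which has a bacterial counterpart that binds ribosomal RNA early in assembly, had −0.43, −0.25 and −0.40 with a mean of −0.36 ± 0.10 (limma, adjusted p = 0.0115). Mrpl45, which lies at the exit of the peptide tunnel and holds the ribosome at the inner membrane, fell by a mean of 0.34. Mrps30, another protein of the large subunit with a small-subunit symbol, had −0.39, −0.12 and −0.44 and fell by a mean of 0.32. Falls of 0.30 were found for Mrpl21 and Mrpl38. Mrpl2, whose bacterial counterpart lies near the catalytic centre, had a mean of −0.29 on the brighter probe and −0.27 on the other. Mrpl48 (−0.28), Mrpl14 (−0.27) and Mrps26 (−0.21) were also called lower and are named after their values were seen.

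Mrps12 and Mrps17 were not called with loess. Mrps12, a protein of the decoding centre, had −0.10, 0.035 and −0.44 with a mean of −0.17, so its arrays disagreed in sign. Mrps17 had 0.48, −0.077 and 0.18 with a mean of 0.19, and its SD over arrays of 0.28 was among the 3 largest of the family with those of Mrpl42 and Mrpl10. With median centring both were called higher, Mrps12 at 0.50 and Mrps17 at 0.78.

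With loess, the median log2 ratio was slightly higher among large than among small subunit genes. The 41 Mrpl genes had a median log2 ratio of 0.052, with 0.060, 0.012 and 0.087 on replicates 1, 2 and 3. The 22 Mrps genes had a median of −0.036, with −0.0063, −0.026 and −0.081. Large minus small was 0.066, 0.037 and 0.17 on the 3 arrays, and 0.089 for the mean ratios (SD over arrays 0.069). It was above 0 on each array, and under the alternatives run it ranged from 0.056 to 0.15. Relative to the all-gene median the large subunit lay 0.10 higher and the small 0.012 higher with loess, and 0.38 and 0.23 higher with median centring. The small subunit lay below the all-gene median by loess with no filter on dim probes (−0.031), with both colours required above background (−0.0050) and without replicate 1 (−0.0051). Shares above 0 were 65.9% of Mrpl genes (27 of 41) and 45.5% of Mrps genes (10 of 22) with loess, and the Mrps median was positive at 0.50 with median centring and 0.85 with no normalization. With loess, 8 Mrpl genes were called higher and 8 lower (39.0% called), and 5 and 5 Mrps genes (45.5%). Over all genes 37.5% were called, 11.6% higher and 25.9% lower. Placing Mrps30 and Mrps18a in the large subunit, where their proteins lie, gave 43 against 20 genes and the same medians. On each array Mrps18a lay above both medians and Mrps30 below them, so this move could not change the medians. No test was run on this difference, because genes are not replicates of the treatment.

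**Figure D3:**
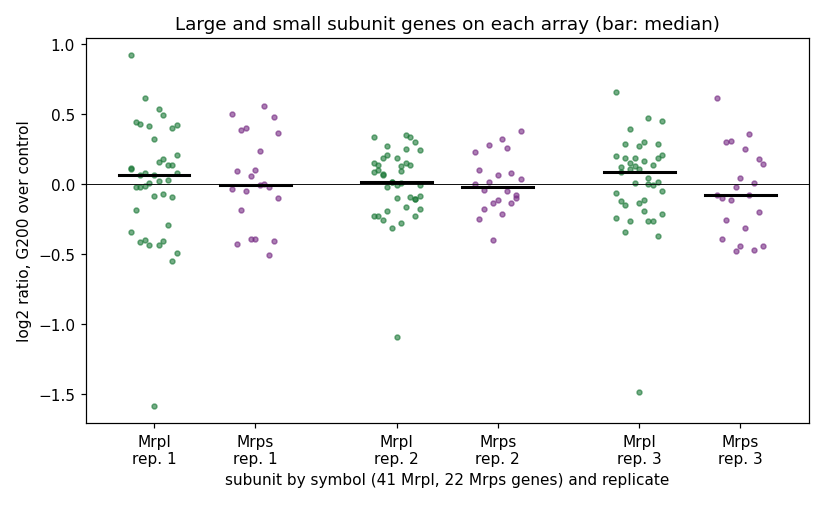
Log2 ratio (G200 over control, loess-normalized) of 41 Mrpl and 22 Mrps genes on each of the 3 arrays, with points for genes and bars for medians. The Mrpl median lies above the Mrps median on each array by 0.037 to 0.17, a difference that was not tested, and both medians were positive with median centring.

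By origin, the 24 large-subunit members shared with bacteria had 16 means above 0, a median of 0.044, and 3 called higher and 4 lower. The 19 large-subunit members of mitochondria alone had 12 above 0, a median of 0.056, and 6 called higher and 5 lower. The shares called in these groups were 29.2% and 57.9%, against 37.5% of all genes. In the small subunit, the 11 members shared with bacteria had 7 above 0, a median of 0.031, and 3 called higher and 2 lower. The 9 of mitochondria alone had 2 above 0, a median of −0.052, and 1 called higher and 2 lower. The shares called were 45.5% and 33.3%. All of these counts above 0 are those with loess. For comparison, a subset of 42 cytosolic ribosomal protein genes had a median of 0.0050 with 7 called higher and 3 lower (23.8% called). This subset left out every gene whose symbol is Rpl followed by digits alone, so it does not represent the cytosolic large subunit. The 31 genes of respiratory complex I, part of whose subunits the mitoribosome makes, had a median of 0.066 with 12 higher and 5 lower (54.8% called).

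Precision within an array was higher than between arrays for most members printed in several copies. The 7 members whose probe had 10 spots on each array had a mean SD over spots of 0.038 to 0.067, and their SD over arrays was 0.038 to 0.16. The members' log2 intensity, after quantile normalization of each colour over the arrays, varied more in red than in green, with a median SD of 0.13 against 0.059. In 9 members 2 probes were kept, and in 3 of these (33.3%) their mean ratios had opposite signs, as in 37.1% of all genes with several kept probes (498 of 1342). Mrpl17 had means of −0.11 and 0.078, Mrpl40 of 0.056 and −0.073, and Mrps16 of −0.039 and 0.17 on the brighter and the other probe. None of these 3 genes was called with loess. With median centring the brighter probes of Mrpl17, Mrpl40 and Mrps16 were at 0.61, 0.73 and 0.71, and all 3 genes were called higher. Mrpl35 had 0.14 on the brighter and 0.55 on the other probe, and it is named after its values were seen.

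**Figure D4:**
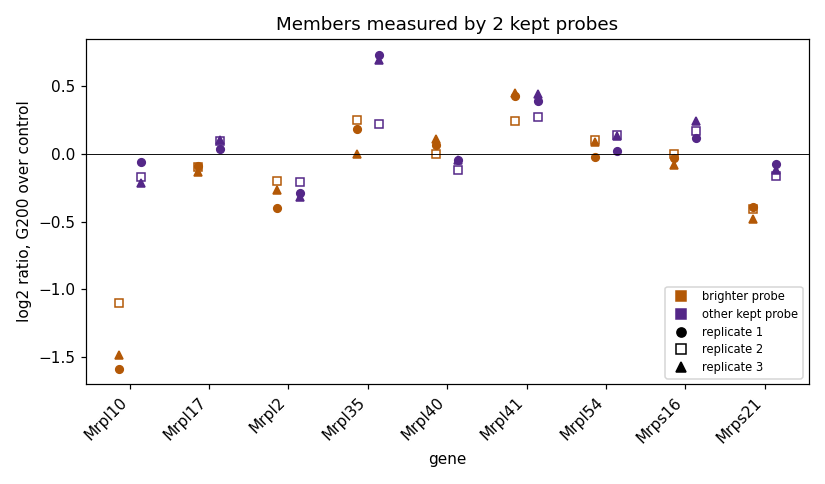
Log2 ratio (G200 over control, loess-normalized) on each array for the brighter probe and the other kept probe of the 9 members with 2 kept probes. The probes of Mrpl41 and Mrpl2 lie close together, while those of Mrpl10 differ by more than the spread of either over the arrays.

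Of the other genes of mitochondrial gene expression, 71 of 91 were tested, with 31 means above and 40 below 0 and a median of −0.052. With loess, 6 were called higher (8.45%, against 11.6% of all genes) and 14 lower (19.7% against 25.9%), and 9 of those named below as lower had means above 0 with median centring. Among 5 mitoribosomal proteins under other symbols, none was called higher (limma, which also gave none at an unadjusted p under 0.05) and 2 lower, the small-subunit proteins Ptcd3 (−0.38) and Dap3 (−0.21). Of 13 translation factors tested of 17, 2 rose and 3 fell. The elongation factors Guf1 (0.40) and Tufm (0.22) rose, and the initiation factor Mtif2 (−0.33), the rescue factor Mtres1 (−0.30) and the membrane insertase Oxa1l (−0.23) fell. Averaged over its kept probes Oxa1l was at −0.16 and not called. Of 18 assembly genes tested of 26, 1 was called higher, Mterf3 at 0.36, and none lower. At an unadjusted p under 0.05 limma also gave 1 lower, Mrm1 at −0.21, which is named after its values were seen.

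**Figure D5:**
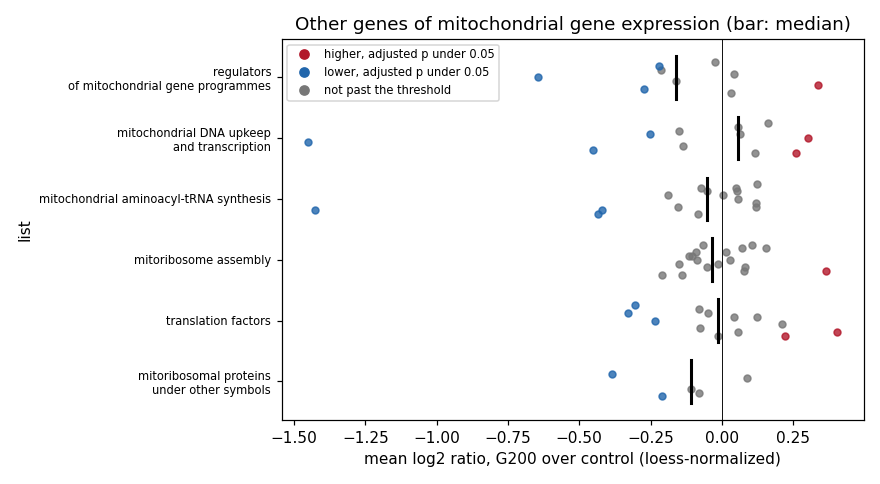
Mean log2 ratio (G200 over control, loess-normalized) of 71 genes in 6 lists of mitochondrial gene expression, with points for genes and bars for list medians. Most points lie between −0.5 and 0.5, and Wars2, Twnk and Myc lie lowest, while several genes that are lower here had means above 0 under median centring.

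In aminoacyl-tRNA synthesis 15 of 22 genes were tested, with 3 called lower and none higher (limma, which also gave none higher at an unadjusted p under 0.05). Wars2, the mitochondrial tryptophanyl-tRNA synthetase, had −1.61, −1.04 and −1.63 with a mean of −1.43 (limma, adjusted p = 0.00119). Sars2 was at −0.44 and Ears2 at −0.42. With median centring they were at −0.068 and −0.069 and not called, and with no normalization both lay above 0. Among 11 genes of mitochondrial DNA upkeep and transcription tested of 12, 2 rose and 3 fell. Twnk, the replicative helicase, had −1.71, −1.05 and −1.59 with a mean of −1.45 (limma, adjusted p = 0.00125). Wars2 and Twnk were still called with median centring, at −1.02 and −0.54, while with no normalization Twnk was at −0.19 and not called. Averaged over its kept probes Twnk was at −0.71 and still called. Polrmt, the mitochondrial RNA polymerase, was at −0.45 and Top1mt at −0.25, both above 0 with median centring. Ssbp1, which coats single-stranded mitochondrial DNA, was at 0.30 and the packaging factor Tfam at 0.26. Of 9 regulators of mitochondrial gene programmes, Gabpa rose by a mean of 0.34 while its partner Gabpb1 was at −0.22, Pprc1 at −0.27 and Myc at −0.65. Gabpb1 and Pprc1 had means above 0 with median centring, and Myc was at −0.043 and not called with no normalization.

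Markers of other cells moved between the groups as well. Of 15 liver genes 14 were tested and all 14 were called lower, with a median of −1.62, −3.16 and −4.19 on replicates 1, 2 and 3. Their summed intensity was 192408, 183270 and 209862 in the control and 55525.7, 18393.1 and 8020.4 in G200. Ttr had the highest intensity of them, with ratios of −1.86, −3.80 and −5.49, and Cps1 did not pass the filter. The 4 red cell genes tested had medians of 0.011, −0.20 and −1.10, with 1 called lower (Slc4a1). Their summed intensity was 108826, 98167.5 and 115945 in the control and 113239, 84369.6 and 43080.8 in G200. Hba-a1 had the highest intensity. Of 10 proximal tubule genes 9 were tested, with a median of 0.059, 2 called higher and 1 lower. Their summed intensity was 169293, 141894 and 166625 in the control and 174857, 192448 and 169105 in G200, with Kap at the highest intensity and Slc5a12 not past the filter. All 4 thick ascending limb genes were tested, with a median of 0.25 and 2 called higher. Their sum was 39430.5, 36445.2 and 38781 in the control and 65407.1, 55978.7 and 59516.5 in G200, with Umod at the highest intensity and a mean ratio of 0.87. Cldn16 was also called higher (0.41), while Kcnj1 (0.091) and Slc12a1 (−0.18, below 0 on all 3 arrays) were not called. Intensities of different probes do not rank the amounts of their RNAs. Kidney markers were thus present in both groups. The 5 podocyte genes had a median of 0.36 (0.72, 0.059 and 0.24 on replicates 1, 2 and 3) with 1 called higher. The 5 principal cell genes of the collecting duct had a median of 0.17 (0.29, 0.20 and −0.050) with none called. The log2 ratio of their summed intensity was −0.31, −0.017 and −0.47. For 4 of 5 intercalated cell genes the median was 0.16 (0.37, 0.20 and −0.082), and 1 was called higher and 1 lower. Slc4a1 among the intercalated cell genes is also a red cell gene. Medians were −0.053 for 5 of 6 endothelial genes (1 called lower), 0.054 for 5 of 6 stromal genes (1 called higher) and −0.0013 for 4 of 7 macrophage and lymphocyte genes (none called). In the distal convoluted tubule list only Slc12a3 of 4 genes was tested, at 1.23, −0.0032 and −0.20 and not called, in the adrenal list only Cyp17a1 of 4, called at −0.26, and in the adipose list 2 of 4, with a median of 0.039 and none called. The part of these differences in the members' ratios was not tested.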

How the data were processed

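Kidney RNA was measured on 3 two-colour Agilent arrays (control in Cy3, G200 in Cy5). The authors deposited, per array, uncorrected median intensity values for the spots and for the background around them. The log10 ratio they deposited is red over green, for which Feature Extraction had subtracted background and corrected the dyes with a linear factor and LOWESS. Feature Extraction is version 11.5.1.1 per the file headers and 9.3.2.1 per the labels, and the paper's methods name another version.

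From the deposited intensities, background was corrected with limma 3.58.1 in R 4.3.3 (normexp, offset 50) followed by loess between the dyes on each array, with control and outlier spots given no weight and left out (635, 736 and 945 outlier spots on replicates 1, 2 and 3). Spots of a probe were averaged. Probes well above background in the same colour on all 3 arrays were kept (15649 of 30367), and the brightest stood for its gene. Array accessions were matched without version to RefSeq (GRCr8), which gave a symbol to 60.4% of probes. The mean log2 ratio of a gene was compared with 0 by lmFit and eBayes, two-sided, the array serving as block, with Benjamini-Hochberg adjustment over 14179 genes and a threshold of 0.05. The number of arrays limits the precision, and ratios of dim genes are limited by their small signal over background.

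The genes named are the 10 largest rises and 10 largest falls among called members of the same sign on all arrays, members with probes of opposite sign, the 3 with the largest SD over arrays, those with a small-subunit symbol in the large subunit, those of well known role and, per other list, up to 3 called rises and 3 called falls. Others are said to be named after their values were seen. Members, lists and motifs were chosen with earlier results of these data known. Alternatives were other background and dye corrections, filters, probe choices, variance models and tests, and each array left out. Only the limma test with its adjustment was tried on simulated data, which were log ratios drawn per gene. This trial did not cover background correction, loess between the dyes, the filter or the choice of probe. With spreads drawn from the raw SD of each gene, fewer changed genes were recovered than the limit set for this trial asked, fewest among the smaller changes. The limit was then applied to spreads drawn from limma's moderated SD, the spread that the test itself uses.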

Additional observations from a re-analysis of the deposited data

How the results depend on the processing

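With median centring, 44 members were called higher and 1 lower (71.4%, against 44.0% of all genes), 95.2% lay above 0, and the medians were 0.60 for all members, 0.65 for Mrpl and 0.50 for Mrps genes. With no normalization between the dyes, 8314 genes were called, 57 members were higher and 0 lower (0 also at an unadjusted p in limma), 98.4% lay above 0, and the medians were 0.95, 1.00 and 0.85. Means turned positive with these 2 settings in turn for Mrpl2 (0.36 and 0.71), Mrpl17 (0.61 and 0.96), Mrpl21 (0.26 and 0.61), Mrpl38 (0.29 and 0.64), Mrpl45 (0.35 and 0.70), Mrpl58 (0.37 and 0.72), Mrps12 (0.50 and 0.85), Mrps15 (0.15 and 0.50), Mrps16 (0.71 and 1.06), Mrps21 (0.23 and 0.58), Mrps30 (0.33 and 0.68), Mrps34 (0.37 and 0.72), Dap3 (0.21 and 0.56), Ptcd3 (0.31 and 0.66), Mtif2 (0.18 and 0.53), Mtres1 (0.34 and 0.69), Oxa1l (0.49 and 0.84), Polrmt (0.025 and 0.38), Top1mt (0.32 and 0.67), Pprc1 (0.066 and 0.42) and Gabpb1 (0.29 and 0.64). Ears2 and Sars2 did so with no normalization only (0.28 each). Both settings leave out the correction for intensity that loess makes. With the deposited Feature Extraction ratio, 4 members were called lower, 60.3% lay above 0, and the medians were 0.077 for members and 0.0053 for Mrps genes. Members called lower were 4 with an offset of 0 and 5 with plain background subtraction, and 69.2% and 66.7% of their calls were higher. A fit of separate channels called 8 higher and 9 lower (27.0%, against 28.9% of all genes). That fit had no block for the array and counted the 3 green channels as separate samples, although they stood as a single control above. A t-test of the 3 ratios against 0, which is not the unequal-variance test between groups named in the study's methods, called 2 genes after adjustment and 0 members in either direction (4475 genes, 8 members higher and 9 lower before adjustment). The cause of the differences with the last 5 settings was not tested.

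Leaving out 1 array, which leaves fewer arrays for the test, gave 1611 genes (without replicate 3) to 4965 (without replicate 2), 0 to 11 members higher, 1 to 11 lower, 54.0% to 58.7% above 0, and medians of 0.018 to 0.050 for members, 0.038 to 0.065 for Mrpl and −0.047 to −0.019 for Mrps genes. Without replicate 3, 35 of the 40 called genes that the naming rule picked lost their call and 0 changed sign. The members' counts of calls were within 1 with no filter, with both colours required above background, with the mean over probes and with a robust variance model. With the mean over probes the Mrps median was −0.0071, and with no filter the members' median lay 0.043 above that of all genes. Matching members by the gene name printed on the array was not run, because the files used hold no such column. Signals near background limit the ratios of dim genes.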
